A study of Mus musculus with 6 samples.

Results

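The genes examined here encode the machinery that makes and uses microRNAs, short RNAs that lower the output of matching messenger RNAs. In the nucleus, the ribonuclease Drosha and its RNA-binding partner Dgcr8 cut a hairpin out of a long primary transcript. In the cytoplasm, Dicer1, helped by the double-stranded RNA-binding proteins Tarbp2 and Prkra, trims the hairpin to a short duplex, and an Argonaute protein (Ago1, Ago2, Ago3 or Ago4) keeps 1 strand as its guide. Lin28a, a protein of early embryonic and stem cells, binds the precursors of the let-7 microRNAs and blocks their processing. In mouse retina, loss of Dicer1 from progenitors or from photoreceptors is known to disturb development or survival, and rod photoreceptors carry abundant microRNAs.

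The list held these 10 genes, chosen by name, and all 10 were measured, out of 18193 genes on the arrays. They were read by 27 of 45037 probe sets, a probe set being a group of short oligonucleotides that together report 1 transcript. Each gene was read first by its brightest probe set, judged by the mean of the 6 arrays, and the others were compared with it. Ago1 had 1 probe set and the other 9 genes had 2 to 5.

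RNA came from adult retinas of WT and Trim9 KO littermates, with 3 samples of each genotype and 1 array per sample. The KO allele lacks exon 1 of Trim9, which was removed in all tissues by crossing to CMV-cre mice, so the loss was not limited to the retina. Age beyond adulthood and strain are not stated in the labels, and 1 label that speaks of embryos goes against the others, which all say adult retina. Values are the deposited intensities, analysed as log2(intensity + 16), and a log2 fold change is Trim9 KO over WT on that scale, which understates changes of dim probe sets. Whether a change reflects fewer cells of a type or less RNA per cell cannot be told apart in whole retina.

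Trim9 itself, an E3 ubiquitin ligase, read 4226, 1767 and 1667 in WT and 1498, 497 and 367 in Trim9 KO retinas with its brightest probe set (intensity, replicates 1 to 3). Each KO value was lower than each WT value, and the log2 fold change was -1.81 (standard error 0.99). All 4 of its probe sets had a lower mean in the KO, but their position with respect to exon 1, the deleted part, was not available, so they are a partial check of the labels. Over the 45037 probe sets, limma called 0% at an adjusted threshold of 0.05, the lowest adjusted p being 0.999. Before adjustment 1296 (2.88%) had p under 0.05. The median log2 fold change was 0.14 over all genes and 0.18 over all probe sets, and changes below are to be read relative to it.

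Arrays of 1 genotype differed widely. The mean Pearson's r of an array with the other 5 across probe sets was 0.50 for Trim9 KO replicate 1 and 0.63 to 0.74 for the rest. The ratio of 3' to 5' signal for Gapdh, which rises as RNA is degraded, was 0.90 on WT replicate 3 and 82.0 to 310 on the others. The same ratio for Actb was 20.2, 9.87 and 3.43 in WT and 2.83, 94.5 and 90.5 in Trim9 KO, so that by Actb KO replicates 2 and 3 were above every WT array and KO replicate 1 was the lowest of the 6. As a description of the tissue, without detection calls, all 4 rod, all 4 cone, all 4 amacrine, all 4 ganglion cell and all 4 Müller glia markers that could be read had means above the median of all probe sets, as did both bipolar markers and 1 of 3 horizontal cell markers. Of lens and blood markers, 0 of 4 and 0 of 2 did. Pigment epithelium markers (3 of 4 above the median) summed to a log2 intensity of 16.1 to 18.8 in WT and 18.4 to 20.4 in Trim9 KO, microglia markers (1 of 3) to 12.3 to 14.5 and 14.3 to 15.1, endothelial markers (2 of 3) to 9.63 to 10.4 and 10.2 to 11.5, rod markers to 18.97 to 19.69 and 18.39 to 18.97, and cone markers to 15.2 to 16.2 and 14.4 to 15.1. In these sums the brightest marker weighs most. Mean log2(intensity + 16) was 18.3 for Ttr and 6.82 to 11.1 for the other pigment epithelium markers. Among microglia markers it was 13.9 for Csf1r, 7.74 for C1qa and 7.54 for Cx3cr1. The part of the array, RNA and marker differences above in the results below was not tested.

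None of the 10 genes passed the threshold of limma for a difference between genotypes. Of the 10, 0 passed after adjustment and 0 had p under 0.05 before it (lowest unadjusted p in limma = 0.10, for Lin28a), and for 0 of 10 did the KO arrays lie wholly to 1 side of the WT arrays, where 8.24% of all genes did so. By mean, 7 genes were higher in Trim9 KO and 3 lower, where 55.2% of all genes were higher. The median log2 fold change of the 10 was 0.38, and it was 0.063 when the array medians were made equal, a setting in which the median of all genes was -0.19.

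**Figure D1:**
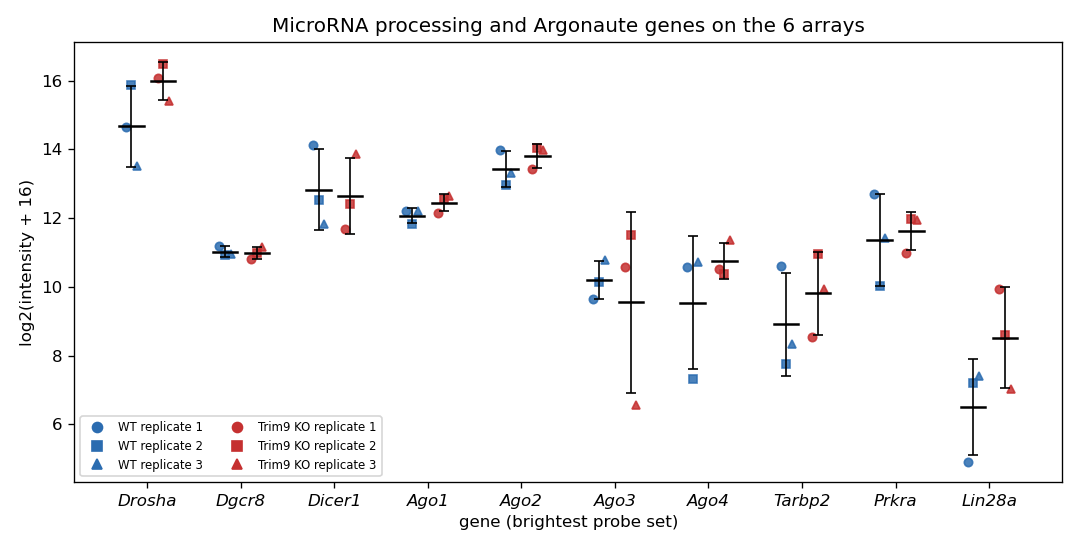
Log2(intensity + 16) (y axis) of the brightest probe set of each of the 10 genes (x axis), shown as 1 point per array in blue (WT) or red (Trim9 KO). Long lines are means and bars are SD (n = 3). The genotypes overlap for all 10 genes, and the points of Dgcr8, Ago1 and Ago2 lie closest together. Heights of different probe sets are not comparable with each other.

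The nuclear step was examined first. Drosha, the ribonuclease III enzyme that releases the hairpin, read 25535, 60136 and 11644 in WT and 69824, 91155 and 43214 in Trim9 KO retinas (intensity, replicates 1 to 3). Both KO replicates 1 and 2 were above every WT array, whereas KO replicate 3 lay below WT replicate 2. The log2 fold change was 1.31 (standard error 0.99, 95% interval -0.87 to 3.50; limma adjusted p = 0.999; two-sided exact permutation test, p = 0.2). With 3 arrays a genotype, this permutation test cannot give less than 0.1. The lowest value came from WT replicate 3, the array with the low Gapdh ratio (by Actb the lowest was KO replicate 1), and without that array the log2 fold change was 0.73. The part of RNA quality in this difference was not tested.

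The other probe sets of Drosha had a lower mean in Trim9 KO. Probe set 1428656_at read 126, 2250 and 5000 in WT and 90.5, 411 and 515 in Trim9 KO, a log2 fold change of -2.02 (standard error 1.36). The dim 1438440_at (15.8th percentile of all probe sets) read 60.7, 1342 and 9.24 in WT and 150, 75.6 and 34.9 in Trim9 KO. Its log2 fold change was -0.59 (standard error 1.39), and every KO value lay between WT replicates 3 and 2. Pearson's r with the brightest was 0.58 for 1438440_at and -0.47 for 1428656_at. The brightest, 1438505_s_at, carries the suffix that Affymetrix gives to probes shared by several transcripts. When the mean of the 3 probe sets stood for Drosha, its log2 fold change was -0.43, so that its direction depends on which probe set is read.

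Dgcr8, the partner that recognises the hairpin, was the steadiest of the 10 genes. Its brightest probe set read 2341, 1946 and 1953 in WT and 1784, 2015 and 2262 in Trim9 KO, and the highest of the 6 values was 1.31 times the lowest, where the median of this ratio over all genes was 11.5. The means were 11.03 ± 0.15 and 10.99 ± 0.17 (log2 intensity, SD, n = 3 each). The log2 fold change of Dgcr8 was -0.043. Limma draws the error of each gene towards that of all probe sets, and its standard error here was 0.89 (95% interval -2.0 to 1.91), several times wider than the spread of these 6 values alone. The other 3 probe sets had log2 fold changes of -0.32 to 0.77, with ratios of highest to lowest value of 6.42 to 25.8.

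Dgcr8 also holds a microRNA hairpin, shown because it is a substrate of this machinery inside one of its own genes. The hairpin of miR-1306 lies within Dgcr8 on the same strand (GRCm38.p6, chr16:18284239-18284317, minus strand; sequence from RefSeq), and the capitals mark the mature 5p and 3p arms that remain after both cuts.
Mir1306: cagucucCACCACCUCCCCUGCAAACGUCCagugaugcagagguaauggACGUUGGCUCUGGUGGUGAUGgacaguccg
The arrays report the messenger RNA of Dgcr8 and not this microRNA. Where its probe sets lie relative to the hairpin is not known here.

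Dicer1, the cytoplasmic ribonuclease III enzyme, had 2 probe sets that differed. The brighter, 1460571_at, read 17951, 5898 and 3604 in WT and 3259, 5393 and 14872 in Trim9 KO, so that the KO arrays spanned nearly the whole WT range. Its log2 fold change was -0.18 (standard error 1.05, 95% interval -2.49 to 2.12), and it turned to 0.47 when WT replicate 1 was left out and to 0.30 when Trim9 KO replicate 1 was. The other, 1427941_at, read 556, 445 and 862 in WT and 68.5, 61.8 and 400 in Trim9 KO. For this probe set the genotypes did not overlap, with every KO value the lower, and it had a log2 fold change of -2.13 (standard error 1.02, 95% interval -4.37 to 0.10; limma adjusted p = 0.999; exact permutation p = 0.1).

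For the helpers of Dicer1, the highest of the 6 values of the brightest probe set was 9.82 (Tarbp2) and 6.46 (Prkra) times the lowest. The median of this ratio over all genes was 11.5. Tarbp2, which binds Dicer1 and hands the duplex to Argonaute, read 1551, 202 and 307 in WT and 359, 1983 and 956 in Trim9 KO with 1438952_x_at, whose suffix marks probes that may also match other sequences. The log2 fold change was 0.91 (standard error 1.11, 95% interval -1.53 to 3.34), and its second probe set gave -1.17 (standard error 1.33). The value of the brighter one was 0.33 without Trim9 KO replicate 2, 0.34 without WT replicate 2, 1.54 without Trim9 KO replicate 1 and 1.76 without WT replicate 1. Prkra, a related binding protein that also activates the kinase Pkr, read 6591, 1020 and 2708 in WT and 2006, 3984 and 3930 in Trim9 KO. Its log2 fold change was 0.26 (standard error 1.02, 95% interval -1.98 to 2.49), the KO values lay within the WT range, and the sign turned to -0.42 without WT replicate 2. The second Prkra probe set ranged from 2.30 to 777 over the 6 arrays and gave 0.34 (standard error 1.60).

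The 4 Argonaute genes were then compared. Ago1, Ago3 and Ago4 are next to each other in the reference annotation, and Ago2, the member that can itself slice a target, is on another chromosome. Ago1 read 4710, 3591 and 4680 in WT and 4561, 5984 and 6411 in Trim9 KO, a log2 fold change of 0.38 (standard error 0.90, 95% interval -1.58 to 2.35). Both KO replicates 2 and 3 exceeded every WT array and KO replicate 1 did not, and the genotypes did not overlap after quantile normalization (where 8.88% of all genes did not) or without KO replicate 1 (17.8%). Ago4 read 1511, 144 and 1680 in WT and 1463, 1322 and 2625 in Trim9 KO, a log2 fold change of 1.22 (standard error 1.12, 95% interval -1.25 to 3.68). This rested on WT replicate 2, without which it was 0.11. The second Ago4 probe set gave 1.25 and was low on the same array, and Pearson's r between the pair was 0.87 over the 6 arrays.

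Ago3 read 793, 1124 and 1740 in WT and 1515, 2929 and 78.6 in Trim9 KO with its brightest probe set. KO replicate 3 was the lowest of the 6 and KO replicate 2 the highest. The log2 fold change of -0.64 (standard error 1.28, 95% interval -3.46 to 2.18) turned to 0.85 without KO replicate 3. Its other 4 probe sets gave -0.57 to 1.22, of which 3 were positive.

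Ago2 had 4 probe sets. The brightest, alone in having the s_at suffix of probes shared by several transcripts, stood apart from the others. With 1455389_s_at Ago2 read 16299, 7991 and 10210 in WT and 10952, 17012 and 16066 in Trim9 KO, a log2 fold change of 0.39 (standard error 0.91, 95% interval -1.62 to 2.39). With 1455294_at it read 422, 1508 and 1509 in WT and 56.4, 326 and 230 in Trim9 KO. With 1426366_at it read 172, 1165 and 2345 in WT and 84.7, 290 and 209 in Trim9 KO. With 1435636_at it read 196, 575 and 2654 in WT and 161, 22.2 and 170 in Trim9 KO. On each of these dimmer probe sets the lowest WT array was replicate 1, and for the first and last of them every KO value was lower than every WT value. The ratio of 3' to 5' signal for Actb was 20.2, 9.87 and 3.43 on WT replicates 1 to 3. On KO replicates 1 to 3 it was 2.83, 94.5 and 90.5. The part of RNA quality in these Ago2 differences was not tested.

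The log2 fold changes of the 3 dimmer Ago2 probe sets were -2.46 (standard error 1.04), -2.08 (standard error 1.14) and -2.68 (standard error 1.18) in the order given. Their unadjusted p in limma was 0.037, 0.094 and 0.043, and their adjusted p was 0.999, so that they did not pass. Pearson's r among them was 0.64 to 0.92 over the 6 arrays, and -0.69 to -0.44 between each of them and the brightest. When the mean of the 4 probe sets stood for Ago2, its log2 fold change was -1.71 and the genotypes did not overlap (limma adjusted p = 0.999). Probe sets of 1 gene are read from the same 6 samples and are no replicates of each other.

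**Figure D2:**
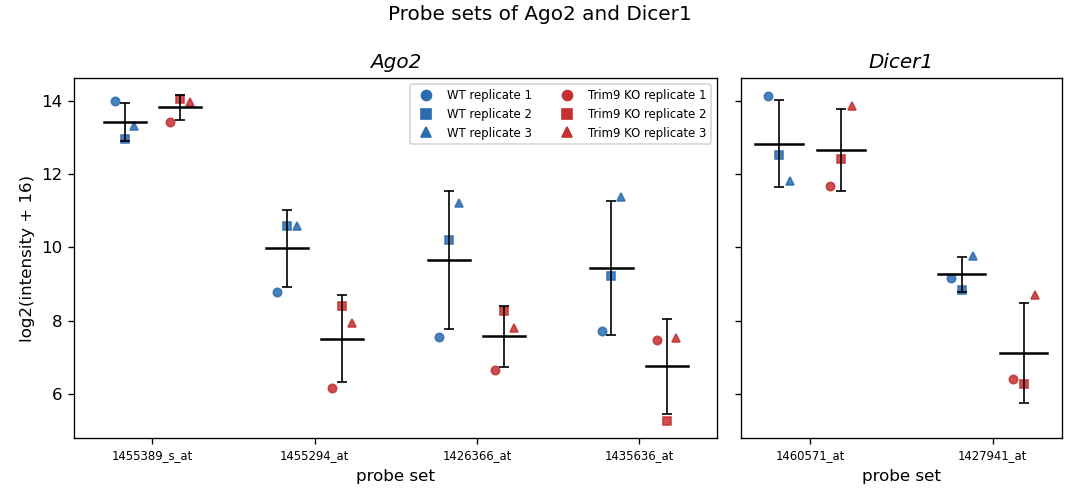
Log2(intensity + 16) (y axis) of each probe set (x axis) of Ago2 (left) and Dicer1 (right), shown as 1 point per array in blue (WT) or red (Trim9 KO). Long lines are means and bars are SD (n = 3). The genotypes overlap on the brightest probe set of each gene, and no KO point reaches a WT point on 1455294_at, 1435636_at and 1427941_at.

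Over all 27 probe sets of the 10 genes, 13 had a higher mean in Trim9 KO and 14 a lower one, where 56.4% of all probe sets were higher, and the median log2 fold change was -0.043. Of the 27, 2 had an unadjusted p under 0.05 in limma, both of Ago2, and 0 passed the adjusted threshold. The genotypes did not overlap for 3 probe sets (11.1%), 2 of Ago2 and 1 of Dicer1, each lower in Trim9 KO, where 7.92% of all probe sets did not overlap. Of the 9 genes with several probe sets, 6 had log2 fold changes of both signs, with the widest span for Drosha (-2.02 to 1.31) and the narrowest for Dgcr8 (-0.32 to 0.77).

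**Figure D3:**
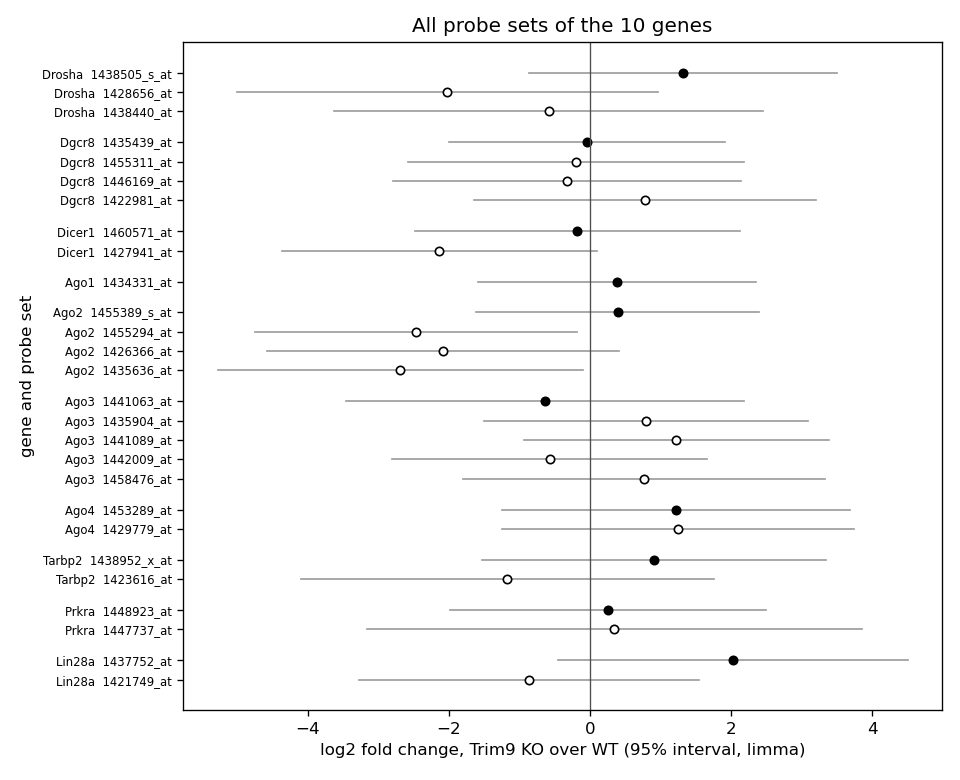
Log2 fold change, Trim9 KO over WT (x axis), of every probe set of the 10 genes (y axis), with the 95% interval from limma; filled circles are the brightest probe set of each gene and open circles the others. Intervals of 2 Ago2 probe sets lie below 0 before adjustment for multiple tests, and the rest span 0.

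Lin28a, whose let-7 substrates are the best known of its RNA partners, had the highest log2 fold change of the 10 genes and the dimmest signal relative to other probe sets. Its brighter probe set, 1437752_at, read 13.8, 131 and 155 in WT and 971, 375 and 113 in Trim9 KO, a log2 fold change of 2.02 (standard error 1.13, 95% interval -0.46 to 4.50; limma adjusted p = 0.999; exact permutation p = 0.3). KO replicates 1 and 2 were above every WT array and KO replicate 3 below 2 of them. Its mean was at the 31.7th percentile of all probe sets, and the deposited file gives no detection calls, so whether Lin28a was detected is not known. Its second probe set, of nearly the same mean, read 112, 1025 and 89.6 in WT and 79.2, 154 and 128 in Trim9 KO, a log2 fold change of -0.86 (standard error 1.10). The choice of arrays mattered: without Trim9 KO replicate 3 the brighter probe set had a log2 fold change of 2.77 and an unadjusted p under 0.05 in limma (adjusted p = 0.854), as 2556 of all probe sets then did against 1296 with all arrays. It was 1.22 without WT replicate 1, 1.31 without Trim9 KO replicate 1 and 0.58 when both Lin28a probe sets were averaged.

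Lin28 proteins grip let-7 precursors at a GGAG motif near the end loop. The hairpins below show that motif in capitals where it is present (sequences from RefSeq, GRCm38.p6), as background to what Lin28a acts on, since let-7 itself was not measured. They lie at chr9:106178840-106178927 (plus strand), chr13:48537829-48537917 (minus strand), chr15:85707319-85707403 (plus strand) and chr15:85706603-85706697 (plus strand).
Mirlet7g: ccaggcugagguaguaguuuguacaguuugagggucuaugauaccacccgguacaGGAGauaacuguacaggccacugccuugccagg
Mirlet7f-1: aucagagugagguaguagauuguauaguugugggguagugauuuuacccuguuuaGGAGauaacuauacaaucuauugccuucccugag
Mirlet7b: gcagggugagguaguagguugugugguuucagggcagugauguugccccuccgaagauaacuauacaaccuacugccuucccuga
Mirlet7c-2: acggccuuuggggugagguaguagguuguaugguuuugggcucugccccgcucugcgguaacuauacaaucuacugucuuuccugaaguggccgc
Of 11 let-7 hairpins in the table, 9 held GGAG on the transcript strand, and Mirlet7b and Mirlet7c-2 did not. Of all 1005 hairpins in the table, of any length, 44.5% held it. All 8 mature let-7 5p sequences listed share the seed, bases 2 to 8, through which Argonaute finds targets, shown in capitals for 2 of them.
mmu-let-7a-5p: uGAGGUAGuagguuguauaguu
mmu-let-7g-5p: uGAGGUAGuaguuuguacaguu

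Each array was also left out in turn. The sign of the log2 fold change held for Drosha, Ago1, Ago2, Ago4, Tarbp2 and Lin28a whichever array was left out, and turned for Dgcr8 (-0.13 to 0.045), Dicer1 (-0.79 to 0.47), Ago3 (-1.63 to 0.85) and Prkra (-0.42 to 0.92). The number of genes with a higher mean in Trim9 KO ranged from 6 without WT replicate 2 to 9 without WT replicate 1 or Trim9 KO replicate 1, and their median from 0.13 to 0.80. In none of these settings did any of the 10 pass the adjusted threshold in limma.

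**Figure D4:**
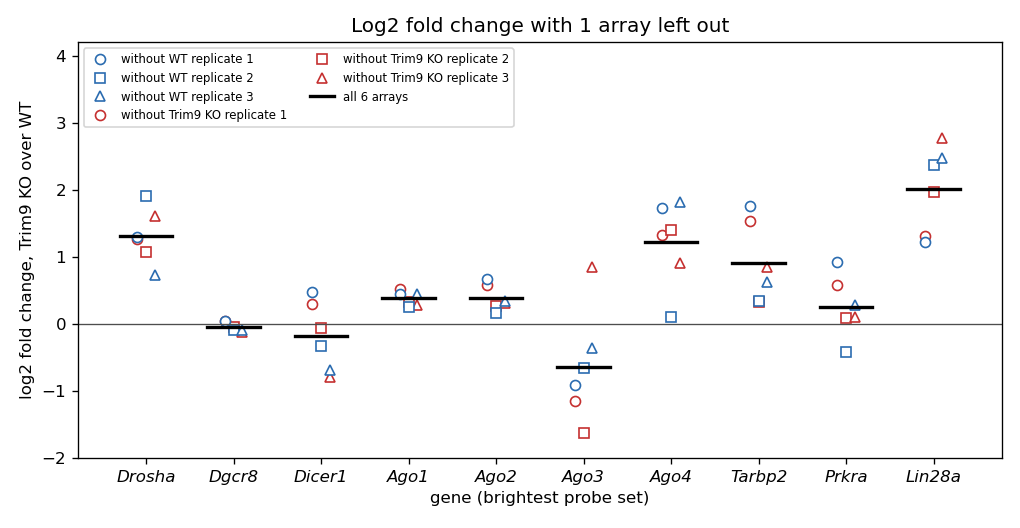
The y axis is the log2 fold change of Trim9 KO over WT for the brightest probe set of each of the 10 genes (x axis) over all 6 arrays (black line) and with 1 array left out (open symbols, blue for a WT and red for a Trim9 KO array). Symbols of Dgcr8, Dicer1, Ago3 and Prkra lie on both sides of 0.

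Across the 6 arrays, the 10 genes did not vary as a block. Pearson's r between brightest probe sets ran from -0.85 (Dgcr8 and Lin28a) to 0.97 (Ago2 and Tarbp2) over 45 pairs, with a median of 0.21, and 3 pairs had r over 0.9, the others being Dgcr8 with Dicer1 (0.96) and Ago2 with Prkra (0.91). These values share 6 arrays of unequal quality. The genes with the pattern most like Drosha were Clec7a, Mfsd13a and Whrn (r = 0.996, 0.995 and 0.992), those most like Dicer1 were Mrpl22, Tsc22d2 and Anapc10 (0.996, 0.996 and 0.995), and those most like Ago2 were Drg1, Nudt16l1 and Npc2 (0.999, 0.995 and 0.994). They are the top of a search of 12055 genes, of which 229, 236 and 406 had r over 0.9 with Drosha, Dicer1 and Ago2.

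Other genes of the pathway were described from 7 lists holding 71 genes, of which 64 were measured. Of these, 32 had a higher and 32 a lower mean in Trim9 KO, with a median log2 fold change of -0.034. By limma 0 passed the adjusted threshold and 1 had an unadjusted p under 0.05, Piwil4. The genotypes did not overlap for 6 genes, 3 higher and 3 lower in Trim9 KO, where 5.35% of all genes were wholly higher and 2.89% wholly lower. For the 3 higher (Pan3, Mrpl44 and Dleu2) the lowest value came from WT replicate 3, the array with the low Gapdh ratio. The part of RNA quality in these was not tested. Of the genes named below, Ran, Hspa8, Snd1, Pan3, Cnot2, Piwil4 and Meg3 were read by probe sets with the x_at suffix, which may also match other sequences. Ncbp1 and Xpo5 were read by probe sets with the s_at suffix, given to probes shared by several transcripts.

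Among 12 cofactors of nuclear processing and export, 9 had a higher mean (median 0.40, and -0.38 when probe sets were averaged per gene). Xpo5, the exportin that carries precursors to the cytoplasm, was at 0.90 (standard error 1.01) and Ran, the GTPase it works with, at 0.87 (standard error 0.98). Ncbp1, of the nuclear cap-binding complex, read 2094, 2012 and 2703 in WT and 101, 1496 and 1537 in Trim9 KO, so that no KO value reached a WT value (log2 fold change -1.80, standard error 1.16, exact permutation p = 0.1). Ncbp1 was far lower on KO replicate 1, the array with the lowest r to the others, than on the other KO arrays, and the part of that array in the difference was not tested.

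Among 7 genes that act on let-7 precursors, 2 had a higher mean (median -0.18). They were Trim71, a ubiquitin ligase of the same TRIM family as Trim9 that is itself a let-7 target (1.53, standard error 1.42), and Lin28b, the paralogue of Lin28a (0.65, standard error 0.97). Zc3h12a, a ribonuclease that cuts precursors, was at -1.12 (standard error 1.14). Trim71, Lin28b and Zc3h12a were dim, with means at the 34.8th, 0.40th and 42.8th percentile of all probe sets. Whether they were detected is not known. Of 8 measured genes listed under Argonaute loading and chaperones, 3 had a higher mean (median -0.32). The chaperone Hspa8 was at 1.01 (standard error 0.99) and Snd1 at 0.89 (standard error 1.15). Adarb1, an RNA-editing enzyme that was also placed in this list, was at -1.71 (standard error 1.37).

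Of 24 measured effectors that silence targets downstream of Argonaute, 11 had a higher and 13 a lower mean (median -0.12). Pan3, of a complex that shortens poly(A) tails, read 2804, 3762 and 1086 in WT and 12351, 7950 and 5734 in Trim9 KO, and each KO value was higher than each WT value (log2 fold change 1.86, standard error 0.96, exact permutation p = 0.1). Cnot2, of the Ccr4-Not deadenylase, was at 1.47 (standard error 0.97), and Tnrc6b, a scaffold that binds Argonaute, at -1.27 (standard error 1.28). The third gene without overlap on the lower side, beside Ncbp1 and Piwil1, was the RNA-binding protein Pum2 (-0.77, standard error 0.90), which is named after its values were seen.

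The PIWI proteins are the germline relatives of the Argonautes, and all 3 measured were dim in retina relative to other probe sets, with means below the median. Piwil4 was at 2.70 (standard error 1.23, unadjusted p in limma = 0.050, adjusted p = 0.999), with intensities of 120, 18.8 and 41.2 in WT and 1830, 479 and 65.5 in Trim9 KO that overlapped. Piwil1 read 96.6, 431 and 60.1 in WT and 30.9, 36.8 and 23.8 in Trim9 KO, a log2 fold change of -1.76 (standard error 1.00) without overlap, and Piwil2 at -0.78 (standard error 1.15). Mrpl44, a ribonuclease III domain protein of the mitochondrial ribosome, read 40612, 39862 and 9660 in WT and 118810, 65136 and 46980 in Trim9 KO. Every KO array was above every WT array (log2 fold change 1.51, standard error 1.00, exact permutation p = 0.1), and with the mean of its probe sets the log2 fold change was -0.34.

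**Figure D5:**
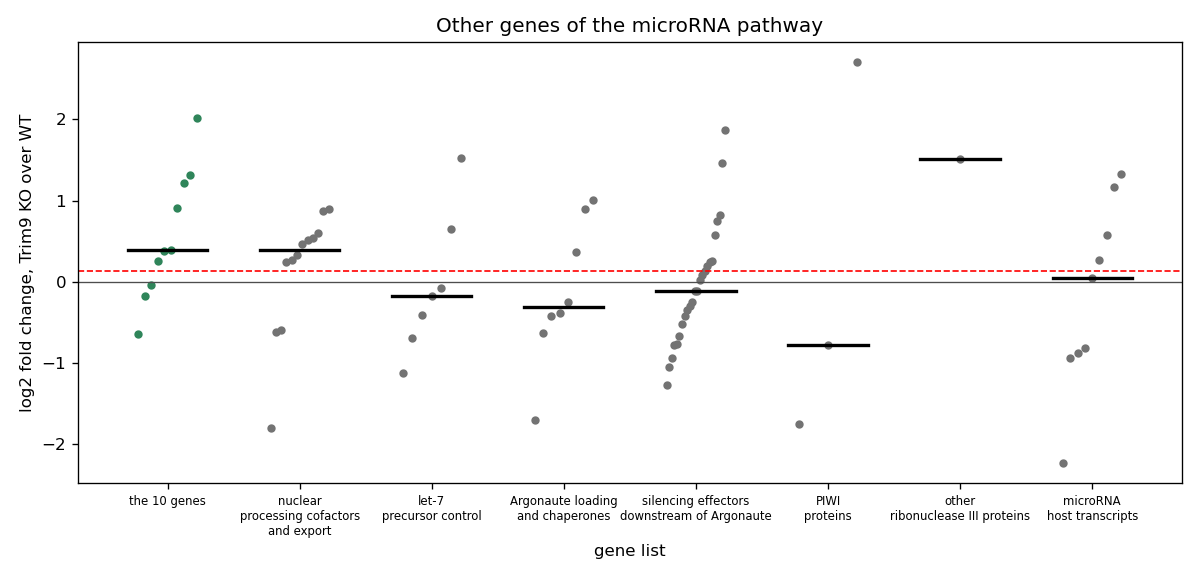
The y axis is the log2 fold change of Trim9 KO over WT, for the 10 genes (green) and of each measured gene of 7 other lists of the microRNA pathway (grey; x axis). Each black line marks a list's median and the red dashes mark 0.14, the median for all genes; every list with more than 1 gene has members on both sides of 0.

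Transcripts that host microRNA hairpins are the substrates of Drosha, and 9 of 12 were measured. Of these, 5 had a higher and 4 a lower mean (median 0.044). Dleu2 read 2940, 3026 and 1320 in WT and 3854, 9796 and 3570 in Trim9 KO, with no overlap (log2 fold change 1.17, standard error 0.96, exact permutation p = 0.1). Meg3 and Rian, which are noncoding RNAs of 1 imprinted region, were at 1.32 (standard error 1.01) and -2.24 (standard error 1.24), and the genotypes overlapped for both. A hairpin carried by each is shown with its mature arms in capitals, since it is what the enzymes cut from the transcript measured (RefSeq, GRCm38.p6; chr14:61631880-61631972 on the minus strand, chr12:109563692-109563785 and chr12:109618258-109618336 on the plus strand, each inside its host on the host's strand).
Mir16-1 in Dleu2: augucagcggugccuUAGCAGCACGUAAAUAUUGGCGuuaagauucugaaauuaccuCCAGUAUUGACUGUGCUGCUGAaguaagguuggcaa
Mir770 in Meg3: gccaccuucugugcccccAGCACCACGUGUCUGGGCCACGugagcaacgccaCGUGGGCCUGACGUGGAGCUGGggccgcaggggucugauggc
Mir370 in Rian: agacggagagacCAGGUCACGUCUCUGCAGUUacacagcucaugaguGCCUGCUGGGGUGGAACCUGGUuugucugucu
The arrays do not separate a primary transcript before Drosha cutting from its spliced remainder, so these levels are not a measure of processing.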

How the data were processed

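RNA of 3 WT and 3 Trim9 KO adult retina samples was hybridized to 6 Affymetrix Mouse Genome 430 2.0 arrays, 1 per sample, and all were used. The deposited table holds linear intensities that the authors scaled so that the mean after trimming 2% of probe sets at each end was equal on every array. MAS5 is the program in the submitters' processing notes (version not given), whereas the methods state RMA, whose values would be on a log2 scale, so the values are not RMA output. No detection calls were used here, and the number of arrays limits precision.

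Of 45101 probe sets, 64 controls were left out, and log2(intensity + 16) of 45037 was fitted with limma 3.58.1 in R 4.3.3 (lmFit, eBayes; no filter, no block), with Benjamini-Hochberg adjustment over all and a threshold of 0.05. Genes were assigned their brightest probe set among the 34945 naming 1 gene in GEO's platform annotation, 99.4% of which matched the gene reference by gene number; 932 naming several genes and 9160 naming none were not assigned. Exact permutation tests over arrays were two-sided (scipy 1.17.1). The labels do not say whether samples are separate animals beyond calling them littermates, so p-values measure the spread between these samples. Figures used matplotlib 3.10.9.

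Named were Trim9, all 10 members, in each other list up to 3 genes with the largest limma statistic, and for Drosha, Dicer1 and Ago2 the 3 genes with the highest r. Members and lists were chosen with earlier results of these data known. Each array was left out in turn, and further alternatives were pseudocounts of 1 and 64, a replicate block, averaging all probe sets of a gene, a filter on dim probe sets, equal array medians and quantile normalization. The scripts were tested on simulated data.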

Additional observations from a re-analysis of the deposited data

How the results depend on the processing

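No probe set and none of the 10 genes passed limma's adjusted threshold in any setting run, so the alternatives bear on signs and sizes only. When all probe sets of a gene were averaged, the log2 fold change turned to -0.43 for Drosha, 0.052 for Dgcr8, -1.71 for Ago2, 0.31 for Ago3 and -0.13 for Tarbp2. In that setting 2 genes did not overlap (Ago2, lower, and Ago4, higher), where 7.58% of all genes did not. A higher mean was then seen for 3 of 12 nuclear cofactors (median -0.38) and 4 of 7 let-7 regulators. It was also seen for 1 of 8 genes of the loading and chaperone list and 0 of 1 ribonuclease III protein (-0.34). Equal array medians lowered every log2 fold change by the same amount. Prkra turned to -0.063, and 5 silencing effectors and 3 host transcripts were left with a higher mean. The median of all genes was then -0.19, so that Prkra stayed above it, and 42.85% of all genes had a higher mean. Quantile normalization left Ago1 as 1 gene without overlap, with 4 let-7 regulators and 3 host transcripts higher. The filter on dim probe sets dropped Lin28a. Of the let-7 regulators it dropped Trim71 and Lin28b, which had been higher, and also Zc3h12a and another that had been lower. So 0 of the let-7 regulators left, all of them lower before, were higher, without any turn of sign. With an array left out, the log2 fold change ranged from -0.13 to 0.045 for Dgcr8, -0.79 to 0.47 for Dicer1, -1.63 to 0.85 for Ago3 and -0.42 to 0.92 for Prkra. The number of genes without overlap then ranged from 0 to 2, where 13.3% to 23.1% of all genes did not overlap, of let-7 regulators higher from 2 to 4, of PIWI genes higher from 1 to 2, and of host transcripts higher from 3 to 7. The cause was not tested. Without detection calls, signal over background is unknown, which limits the dimmer probe sets and Lin28a most. Pseudocounts of 1 and 64 turned no sign among the 10 genes.

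The replicate number pairs no samples by origin in the labels, and deviations of same-numbered arrays correlated at -0.23, -0.081 and 0.033. With the replicate block 0 probe sets passed the adjusted threshold and 864 had an unadjusted p under 0.05, against 1296 without it. With 3 arrays of each genotype the block leaves every fold change as it was by construction.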
